A study of Mus musculus with 6 samples.

Results

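The 10 genes described here encode the alpha and beta tubulin isotypes Tuba1a, Tuba1b, Tuba1c, Tubb2a, Tubb2b, Tubb3, Tubb4a, Tubb4b, Tubb5 and Tubb6. They were taken by name, with earlier results of these data known. All 10 were found among the 55416 genes of the count tables: 3 alpha and 7 beta isotypes. The cells were labelled as oligodendrocyte precursors, the dividing progenitors of myelin-forming cells, and came from the cortex of mice at postnatal day 11, with 4 to 6 animals pooled per sample. In the 3 samples named cKO the genotype was Pdgfra-Cre:Ift88 fl/fl; RosaEYFP, and in the 3 control samples it was Pdgfra-Cre:Ift88 fl/wt; RosaEYFP, so all 6 carried Cre under the Pdgfra promoter, a floxed copy of Ift88 and the reporter. The product of Ift88 carries cargo along the growing cilium, and cells without it make no cilia. The comparison asks what deleting it changes in these cells. P-values measure the spread between pools. Libraries were made from tags near the 3′ end of polyadenylated RNA, so that a count does not grow with transcript length, and levels are given as CPM (counts normalised to the library total). Levels of the 3 alpha genes, Tubb2a and Tubb4b are uncertain, since part of their 3′ sequence also occurs in other genes (below), and their place in any order of levels shares this limit.

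Alpha and beta tubulin form the heterodimer from which microtubules are assembled, in mitotic spindles, in neurites and in the axoneme of cilia alike. Mammals hold several genes for each partner, whose products differ mainly in an acidic carboxy-terminal tail that projects from the microtubule and is modified by glutamate, glycine or tyrosine addition and removal. Tubulin also limits its own mRNA: when free dimer accumulates, the factor TTC5 binds the first residues of the growing chain at the ribosome and the mRNA is degraded. Tubb3 is widely used as a marker of neurons, Tuba1a and Tubb2b are the isotypes of migrating and newly born neurons, Tubb4a is typical of mature neurons and oligodendrocytes, Tubb4b is found in axonemes, and Tubb5 is broadly expressed in dividing and neural cells.

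The coding sequences show how alike the isotypes are and where they part. The opening 15 coding bases are given because they encode the stretch that TTC5 reads. Capitals mark codons 2 to 4 (transcripts of GENCODE M21 on GRCm38, 5′ to 3′).
Tuba1a, Tuba1b and Tuba1c: atgCGTGAGTGCatc
Tubb5: atgAGGGAAATCgtg
Tubb3 and Tubb4b: atgAGGGAGATCgtg
Tubb2a: atgCGCGAGATCgtg
Tubb2b: atgCGAGAGATCgtg
Tubb4a: atgCGGGAAATCgtg
The closing 60 coding bases of Tubb5 and Tubb3, stop codon included, are given because they encode the tail that sets the most abundant isotype and the neuronal one apart. Capitals mark bases of Tubb3 that differ from Tubb5, or have no partner in it, in a global alignment of the coding sequences. The stretches are printed unaligned.
Tubb5: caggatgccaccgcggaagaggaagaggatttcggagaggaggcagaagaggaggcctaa
Tubb3: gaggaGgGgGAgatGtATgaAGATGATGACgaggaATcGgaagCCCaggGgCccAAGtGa
Tubb3 differed from Tubb5, or had no partner base in it, at 29 of these bases. Over whole coding sequences the 3 alpha pairs shared 97.6% to 98.4% of aligned bases, the 21 beta pairs 81.1% to 96.5%, and the 21 pairs of an alpha with a beta gene 62.6% to 64.6%. Tubb2a and Tubb2b were the most alike beta pair.

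On GRCm39 the alpha genes lie together on chromosome 15. Tuba1b (ENSMUSG00000023004) spans 98829306 to 98832446, Tuba1a (ENSMUSG00000072235) begins 15.3 kb on and spans 98847718 to 98851584, and Tuba1c (ENSMUSG00000043091) spans 98927772 to 98935991. Tubb2a (ENSMUSG00000058672) and Tubb2b (ENSMUSG00000045136) are neighbours on chromosome 13, 48.7 kb apart, at 34258257 to 34261990 and 34310731 to 34314449. Tubb5 (ENSMUSG00000001525, 36144813 to 36149198) and Tubb4a (ENSMUSG00000062591, 57387066 to 57394782) are both on chromosome 17. Tubb3 is on chromosome 8 (ENSMUSG00000062380, 124138163 to 124148754), Tubb4b on chromosome 2 (ENSMUSG00000036752, 25112172 to 25114714) and Tubb6 on chromosome 18 (ENSMUSG00000001473, 67523787 to 67535819). In the deposited annotation the closing 500 exon bases overlapped another gene in Tubb4b alone, where Fam166a on the other strand covered 24.2% of them and had 0 counts in every library.

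Total counts were 11773548 to 13909236 in 5 libraries and 568509 in cKO replicate 2, which held 3651 genes with a count against 14047 to 16252 in the others. That library stands apart in most results below, which are therefore given with and without it. Its raw counts cannot be set directly beside those of the deeper libraries. Counts of Ift88 were 143, 32 and 167 in control pools and 1, 0 and 305 in cKO pools, the highest being in cKO replicate 3. A 3′ tag can lie outside the deleted exons, so these counts do not check the genotype. Of the defining precursor genes, Sox10 had 0 counts in all 6 libraries, Olig2 had 67 in cKO replicate 3 and 0 elsewhere, and Pdgfra had 0, 59 and 56 against 155, 0 and 121. Of 22 precursor markers, 6 reached 20 counts in all 5 of the deeper libraries at once, and of 24 neuron markers 15 did.

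Tubulin mRNA was abundant. The 10 genes summed to 11226, 15390 and 6607 CPM in control replicates 1 to 3 and to 13643, 5282 and 14589 CPM in cKO replicates 1 to 3. Control replicate 3 and cKO replicate 2 were the low ones, and the groups overlapped. The means were 11074 ± 4394 and 11171 ± 5122 CPM (SD, n = 3), and the cKO mean was 14116 CPM without replicate 2. The log2 ratio of the means was 0.01 with all libraries and 0.35 without cKO replicate 2, and both differences of the means were smaller than the SD of the controls.

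The order of the isotypes was nearly fixed among the 5 deeper libraries. Tubb5 led with 4147, 6150 and 2939 CPM in control pools and 5977, 2461 and 6344 CPM in cKO pools. It ranked between 3 and 15 among all genes in the deeper libraries. Tubb3, the neuronal isotype, was next with 2219, 2727 and 913 CPM against 2212, 1615 and 2422 CPM. Tubb5 lay above Tubb3, and Tubb3 above Tubb4a, in 6 of 6 libraries. Control replicate 3 was the lowest of all 6 libraries for Tubb3.

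Tubb4a had 1574, 2104 and 695 CPM in control pools and 1544, 12.3 and 1667 CPM in cKO pools. Tubb6, a beta isotype that shared 86.5% of coding bases with Tubb3, had 1144, 1507 and 822 CPM against 1496, 457 and 1599 CPM. These neighbours were not separable, since Tubb4a exceeded Tubb6 in 4 of 6 libraries. Tubb2a had 847, 960 and 332 CPM against 921, 7.04 and 980 CPM. Tubb2b followed its neighbour with 608, 792 and 367 CPM against 743, 10.6 and 764 CPM. Tubb2a exceeded Tubb2b in 4 of 6 libraries, so this order too was not fixed.

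Tubb4b was the lowest beta gene in the deeper libraries and the only member whose highest level was in cKO replicate 2. It had 182, 405 and 276 CPM in control pools and 257, 711 and 343 CPM in cKO pools. Tuba1a was the highest of the 3 alpha members in the deeper libraries, with 417, 578 and 139 CPM against 398, 3.52 and 392 CPM. It exceeded Tubb4b in 4 of 6 libraries, so that these neighbours were not separable. Tuba1c had 72.9, 92.8 and 62.6 CPM against 71.0, 5.28 and 50.5 CPM. Tuba1b was last in every library with 14.6, 73.8 and 62.0 CPM against 24.3, 0 and 29.3 CPM, and a count of 0 in cKO replicate 2 allowed a level of up to 5.28 CPM, a limit that covers counting error only.

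**Figure D1:**
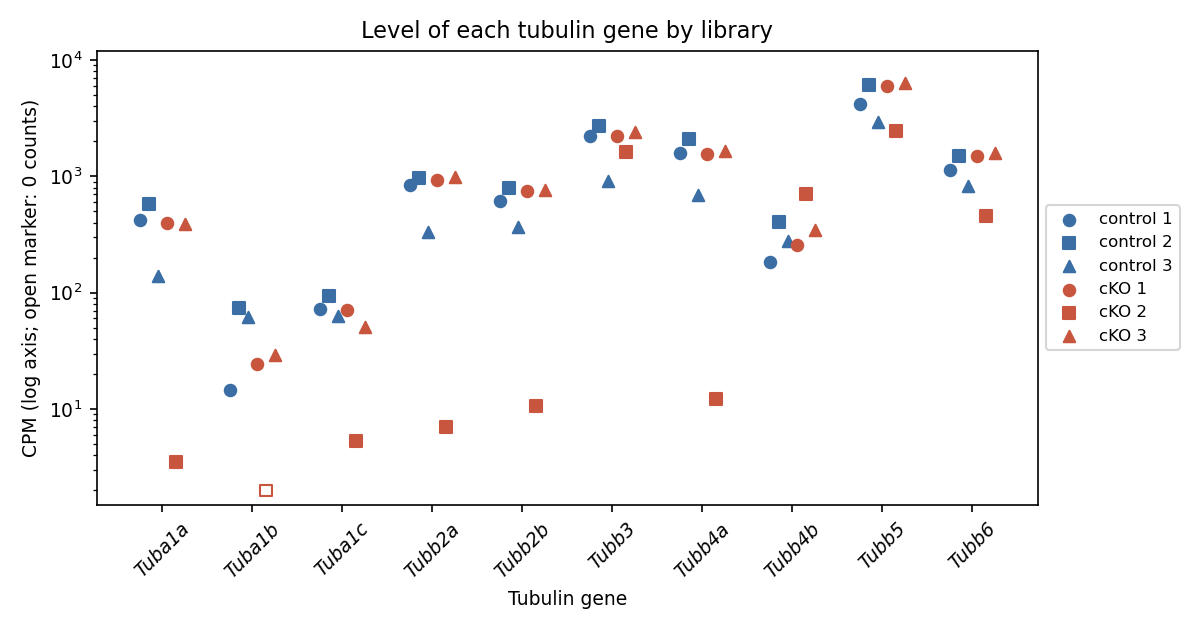
CPM of each tubulin gene (log axis) in the 3 control libraries (blue) and the 3 cKO libraries (red), with the marker shape giving the replicate and an open marker for 0 counts. Tubb5 was the highest gene in all 6 libraries, while 6 of the 10 genes were at 12.3 CPM or less in cKO replicate 2.

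Shares of the 10-gene sum do not depend on the library total. Tubb5 made up 36.9%, 40.0% and 44.5% of it in control pools and 43.8%, 46.6% and 43.5% in cKO pools. Tubb3 made up 19.8%, 17.7% and 13.8% against 16.2%, 30.6% and 16.6%. Tubb2b was the steadiest gene in the deeper libraries, with 5.14% to 5.55%, and Tubb6 ranged from 9.79% to 12.4% there. Control replicate 3 had the highest shares of Tubb5, Tubb6 and Tubb4b among the deeper libraries and the lowest of Tubb3, Tubb4a, Tubb2a and Tuba1a.

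The make-up of cKO replicate 2 differed from that of the other libraries. Of its 3003 tubulin counts, 1399 were Tubb5, 918 Tubb3, 404 Tubb4b and 260 Tubb6, and the other 6 genes had 22 between them: 7 for Tubb4a, 6 for Tubb2b, 4 for Tubb2a, 3 for Tuba1c, 2 for Tuba1a and 0 for Tuba1b. At the lowest share seen in a deeper library, Tubb4a would have had 316 counts there, Tubb2b 154, Tubb2a 151 and Tuba1a 63.0. Such low counts were about as frequent among all genes of that level. Of 1257 genes with at least 100 CPM in each of the 5 deeper libraries, 649 (51.6%) had at most 10 counts in cKO replicate 2, and of the 8 tubulin genes at that level 4 (50%) did.

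**Figure D2:**
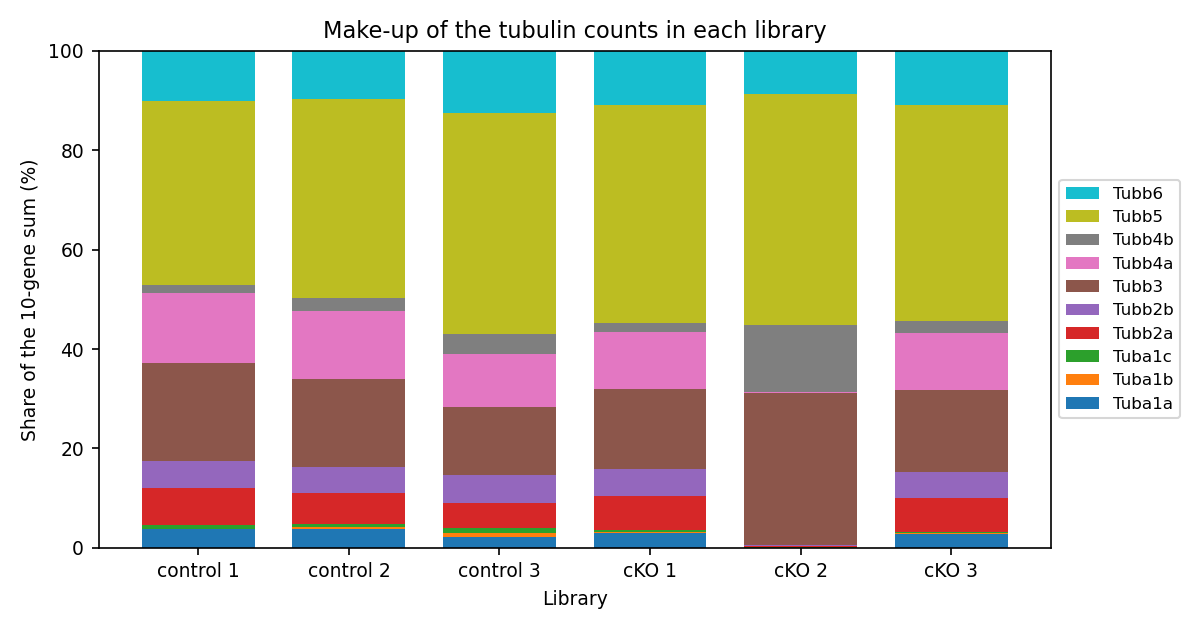
Share of the 10-gene sum (%) taken by each tubulin gene in each library. Tubb5 and Tubb3 were the leading genes in every library, and in cKO replicate 2 nearly all counts came from Tubb5, Tubb3, Tubb4b and Tubb6.

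No tubulin gene passed the test between cKO and control. With all 6 libraries, 0 of 10 members had an adjusted p under 0.05 with edgeR (quasi-likelihood test, Benjamini-Hochberg adjustment over 12833 genes), where 0.0156% of all genes tested passed. At an unadjusted p under 0.05 there were likewise 0 of 10 by edgeR, and DESeq2 also called 0. The CPM ranges of the groups overlapped for all 10 members, against 12.5% of all genes tested whose ranges did not overlap. Without cKO replicate 2, 0 of 10 passed where 0.00687% of 14562 genes did, and ranges again overlapped for all 10, against 25.5% of all genes that did not overlap. With 3 pools a group and this spread, a count of 0 does not show that levels were alike.

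The members' log2 fold changes, cKO against control, ran from -1.46 in Tuba1b (SE 1.74, adjusted p = 1, edgeR) to 0.55 in Tubb4b (SE 1.05, adjusted p = 1, edgeR). Tubb5 had 0.14 (SE 0.34) and Tubb3 0.06 (SE 0.48), the members with the smallest and second smallest standard errors. The median of the 10 was -0.21, beside -0.44 for all genes tested. Without cKO replicate 2 the median was 0.18, beside -0.06 for all genes. In that comparison Tubb5 had 0.48 (SE 0.33), Tubb6 0.42 (SE 0.31), Tubb2a 0.41 (SE 0.45) and Tubb2b 0.35 (SE 0.36), while Tuba1b had -0.88 (SE 0.75) and Tuba1c -0.31 (SE 0.44). The sign of 4 genes depended on that library: Tuba1a, Tubb2a, Tubb2b and Tubb4a were below 0 with it and above 0 without it. Tubb4b was above 0 in each and went from 0.55 to 0.07. Scaling moved the median of all genes from -0.44 with TMM to -0.01 with upper-quartile scaling, and that of the members from -0.21 to -0.01. The members did not move together: with upper-quartile scaling Tubb4b had 4.88, Tubb3 3.36, Tubb5 2.88 and Tubb6 2.44, the 4 genes with 20 counts or more in cKO replicate 2, and the other 6 lay between -1.07 and 0.04.

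**Figure D3:**
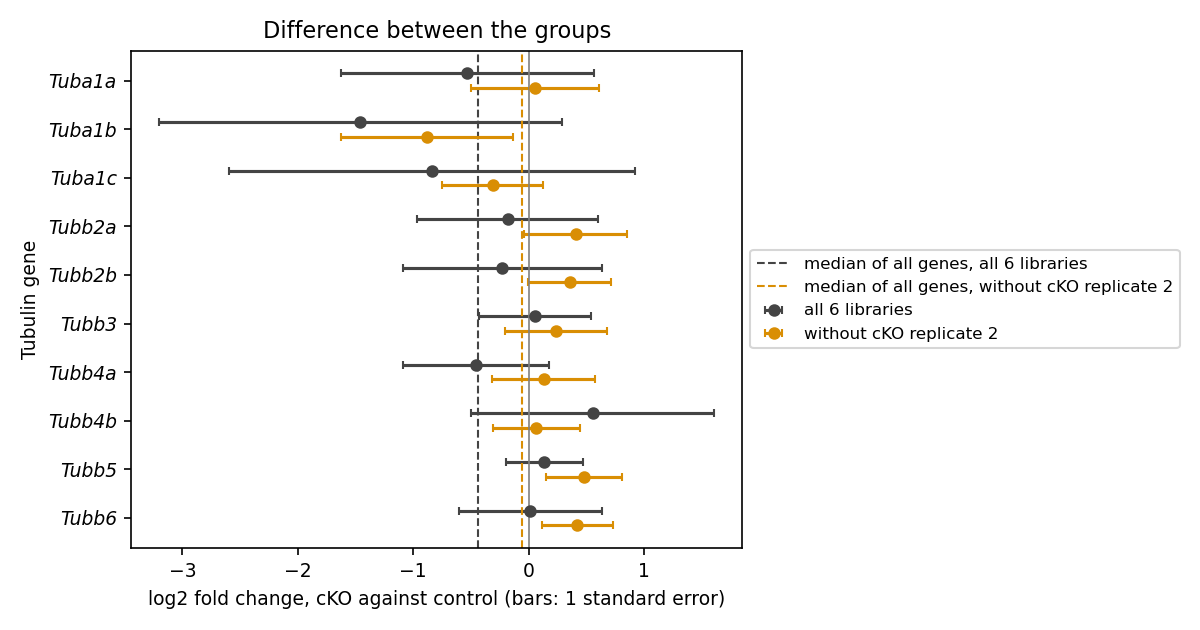
Log2 fold change of each tubulin gene, cKO against control, with 1 standard error, for all 6 libraries (grey) and without cKO replicate 2 (orange), and the median of all genes tested as dashed lines. Tuba1a, Tubb2a, Tubb2b and Tubb4a lay below 0 with all libraries and above 0 without the shallow one, and no gene passed the test in either comparison.

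Among shares, Tuba1c was the only member whose groups did not overlap. It took 0.65%, 0.60% and 0.95% of the 10-gene sum in control pools and 0.52%, 0.10% and 0.35% in cKO pools. Of all genes tested, 15.9% were likewise lower without overlap when divided by the same sum (18.7% without cKO replicate 2), so 1 of 10 members is near the background. Without control replicate 3, the shares of Tuba1a, Tuba1c and Tubb4a were lower and that of Tubb5 was higher in cKO pools without overlap. In that comparison 17.7% of all genes tested were lower and 1.87% higher by the same rule, 19.6% in all, beside 4 of 10 members. Without control replicate 1, the shares of Tuba1b and Tuba1c were lower without overlap, as were 22.2% of all genes tested. The 3 alpha genes together took 4.50%, 4.84% and 3.98% in control pools and 3.61%, 0.17% and 3.23% in cKO pools, also without overlap, and no test was made of this sum.

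The counts of the alpha genes were small beside those of the beta genes. Counts on the 7 beta genes exceeded those on the 3 alpha genes by 19.7 to 29.9 times in the deeper libraries. The 3′ ends of the alpha genes were also the least distinct in sequence. Of the 50-base windows in the closing 500 bases of the transcript, 43.7% in Tuba1a, 31.7% in Tuba1c and 18.6% in Tuba1b occurred in no annotated transcript of another gene. The same share was 100% for Tubb2b, Tubb3, Tubb4a, Tubb5 and Tubb6, 57.6% for Tubb2a and 48.8% for Tubb4b. The sources used here give no read length, and the counting command set no option for reads that align more than once, which by default are not counted. How many reads of the 3 alpha genes, Tubb2a and Tubb4b were lost in this way was not tested.

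Processed pseudogenes, copies of an mRNA reinserted into the genome, carried far more alpha tubulin counts than the genes. A search for annotated processed pseudogenes that share at least 1 window of 50 bases with any stretch of a member's transcript, made after the counts were seen, found 14 related to the alpha genes and 4 to the beta genes. The alpha pseudogenes had 149192, 179725 and 68163 counts in control pools and 136622, 2305 and 131591 counts in cKO pools. This was 18.9 to 23.7 times the counts of the 3 alpha genes in the deeper libraries, and 461 times in cKO replicate 2, where the 3 genes had 5 counts. The 4 beta pseudogenes had 0.0108 to 0.0179 times the counts of the beta genes in the deeper libraries and 0.111 times in cKO replicate 2.

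A few pseudogenes held most of these counts. Gm7172, on chromosome 12, had 59392, 76496 and 23996 counts in control pools and 53216, 1144 and 52537 in cKO pools, and shared 10.5% of the windows of the whole Tuba1a transcript. Gm5620, on chromosome 9, had 25592, 28404 and 11275 against 26095, 513 and 22899 counts and shared 33.6% of the windows of Tuba1b. Gm6682, also on chromosome 12, had 19377, 22441 and 9678 against 18060, 4 and 14961 counts. Gm17383, which shares 46.6% of the windows of Tuba1a, had 0 counts in every library. Some with many counts shared few windows. In control replicate 1, Gm9728 had 13528 counts and shared 1.76% of the windows of Tuba1c. AC132481.2 had 12956 there and shared 0.342% of those of Tuba1a, and Gm5308 had 9925 and shared 1.09% of those of Tuba1c. Of the 13 alpha pseudogenes tested, 0 passed (edgeR, adjusted p = 1 for each), with a median log2 fold change of -0.29 and of 0.03 without cKO replicate 2. Reads that align to both a pseudogene and a gene are by default not counted. Whether reads counted on the pseudogenes came from the genes was not tested.

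With pseudogenes added to the family whose windows they share, the alpha and beta totals came close to each other. Whether the members are the parents of these pseudogenes was not tested. Beta counts were then 0.951, 1.003 and 1.22 times the alpha counts in control replicates 1 to 3 and 1.29, 1.44 and 1.23 times in cKO replicates 1 to 3. The alpha share of the total was 51.3%, 49.9% and 45.02% in control pools and 43.6%, 41.0% and 44.9% in cKO pools. The groups did not overlap, but control replicate 3 (exact 95% Clopper-Pearson interval 44.8% to 45.3%) and cKO replicate 3 (44.8% to 45.1%) could not be told apart by counting error alone. The means were 48.7% ± 3.28 and 43.2% ± 2.04 (SD, n = 3), and the cKO mean was 44.3% without replicate 2. No test was made of this sum over chosen genes. Divided by the 10-gene sum, 15.9% of all genes tested were lower in cKO pools without overlap. For the total with pseudogenes this background was not worked out. The summed level of genes and pseudogenes was 21256 ± 9032 CPM in control pools and 19826 ± 8652 CPM in the cKO samples (SD, n = 3), and 24778 CPM without cKO replicate 2.

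**Figure D4:**
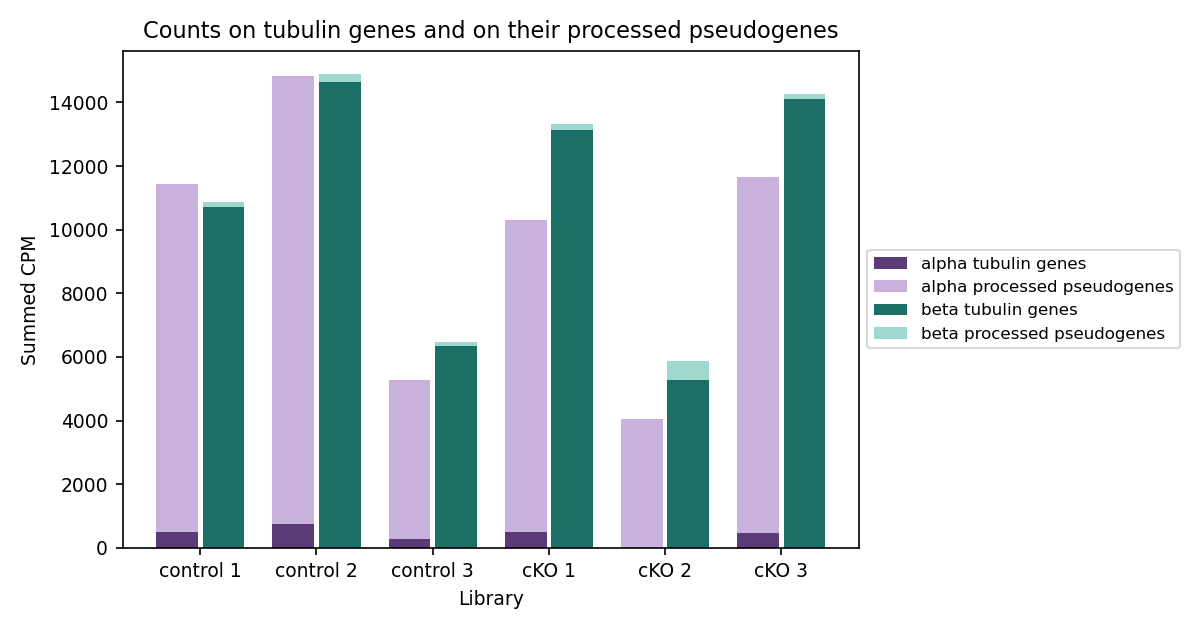
Summed CPM on the alpha tubulin genes (dark purple) and their processed pseudogenes (light purple) and on the beta tubulin genes (dark green) and theirs (light green) in each library. Nearly all alpha counts fell on pseudogenes and nearly all beta counts on the genes, and the alpha and beta totals were within 1.44 times of each other in all 6 libraries.

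Markers of other cell types differed between the libraries, and the neuron markers were low where the 10-gene sum was low. The 24 neuron markers, which do not include Tubb3, summed to 6631, 4623 and 1701 CPM in control pools and 7526, 570 and 7605 CPM in cKO pools. Control replicate 3 was thus the lowest of the deeper libraries for neuron markers, for Tubb3 and for the 10-gene sum. The other deeper libraries did not follow this order. Control replicate 2 had the highest 10-gene sum (15390 CPM) but a lower neuron marker sum than control replicate 1, whose 10-gene sum was 11226 CPM. In cKO replicate 2 only 1 of the 24 neuron markers had 20 counts or more, Nefl with 299, beside 918 counts of Tubb3. The 14 astrocyte and radial glia markers summed to 3034, 7556 and 5380 CPM against 2845, 871 and 3081 CPM. The 12 cycling cell markers summed to 165, 438 and 673 CPM against 246, 1173 and 256 CPM, with Mki67 and Ccnb1 at 0 in all 6 libraries. The 22 precursor markers summed to 469, 587 and 371 CPM against 506, 7.04 and 505 CPM. The 16 myelin and oligodendrocyte markers summed to 337, 186 and 707 CPM against 350, 2512 and 394 CPM. The 12 ependymal and choroid plexus markers summed to 252, 134 and 23.4 CPM against 474, 46764 and 717 CPM. This sum was higher in the cKO pools without overlap, also without replicate 2. Of all genes tested, 1.33% were higher without overlap, and 13.0% without cKO replicate 2. Most of the sum in each cKO pool was Ttr, the choroid plexus carrier of thyroid hormone. Ttr had 25.1, 7.37 and 0.147 CPM in control pools and 376, 45945 and 574 CPM in cKO pools. Without cKO replicate 2, 2 of the 5 genes of this list tested were above 0 and 3 below. Their median log2 fold change was then -0.43. The 12 microglia markers summed to 35.97, 23.5 and 77.9 CPM against 58.6, 679 and 60.7 CPM, and the 12 endothelial and mural markers to 866, 2182 and 2444 CPM against 1060, 647 and 1299 CPM. The 6 red cell genes had 0 counts in every library. The part of these cell types in the tubulin levels was not tested, and in pooled cells fewer cells of a type and less RNA per cell cannot be told apart.

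**Figure D5:**
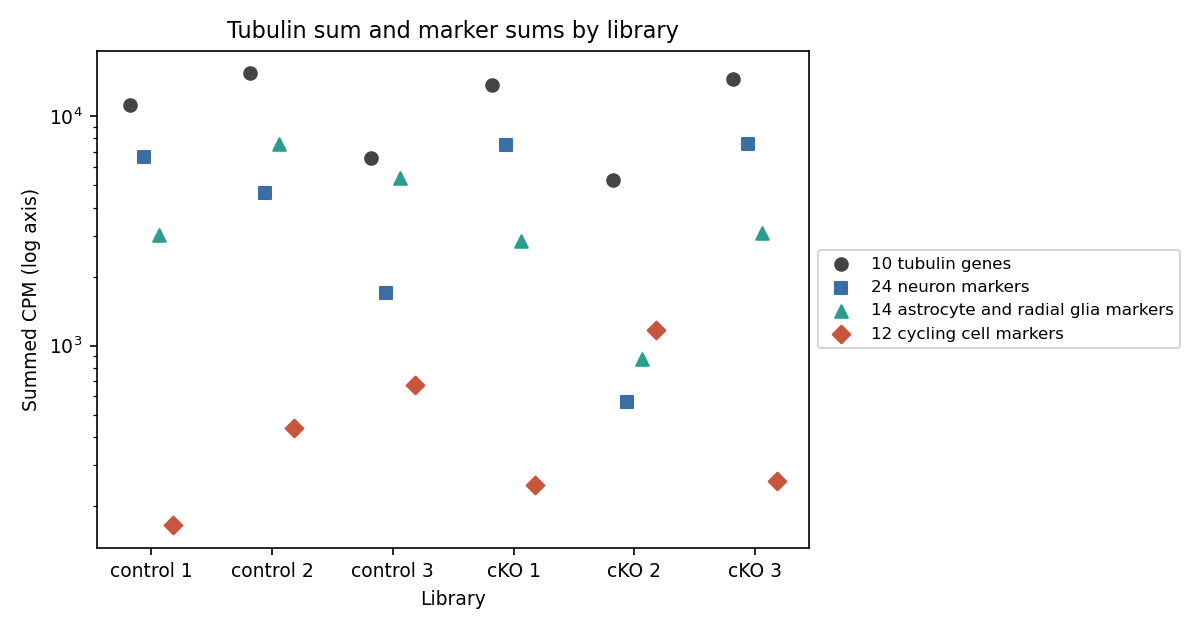
Summed CPM (log axis) of the 10 tubulin genes and of the neuron, astrocyte and radial glia, and cycling cell markers in each library. The tubulin sum and the neuron markers were both lowest in control replicate 3 among the deeper libraries, where the cycling markers were highest.

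Genes that fold tubulin did not pass either. Prefoldin and the chaperonin CCT receive the new chain, and 0 of their 14 genes passed in either direction, with a median log2 fold change of -0.72 (-0.13 without cKO replicate 2). Cct3, a CCT subunit, had 7752, 7283 and 10472 counts in control pools and 5868, 2 and 5500 in cKO pools, lower without overlap (log2 fold change -1.09, SE 0.94). The prefoldin subunit Pfdn6 had 196, 170 and 78 counts against 488, 174 and 127. In CPM this was 14.4, 13.3 and 5.75 against 35.1, 306 and 10.8. Its log2 fold change was 3.31 (SE 1.91), or 1.06 without cKO replicate 2. The tubulin cofactors assemble the dimer. Of 7 genes listed with them, not all of which have that role, 0 passed (median -0.60, and -0.21 without cKO replicate 2). In this list Tbcel had 229, 103 and 782 counts against 218, 0 and 1, and Tbce 0, 146 and 32 against 23, 0 and 0. Of all genes tested, 11.1% were lower without overlap and 1.33% were higher.

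Of the 3 genes of tubulin mRNA autoregulation, 0 passed. Ttc5, whose product reads the nascent chain, had 55, 0 and 2 counts in control pools and 169, 0 and 45 in cKO pools. Scaper, which links TTC5 to the deadenylase, had 202, 181 and 199 counts against 1, 1 and 153. In CPM it was lower without overlap, but narrowly, with 14.8, 14.2 and 14.7 against 0.072, 1.76 and 13.0. Of all genes tested, 11.1% were likewise lower without overlap. Its log2 fold change was -1.56 (SE 2.15).

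Enzymes that modify the tails or the lysines of tubulin had 0 of 20 genes past the test (median log2 fold change -0.16, and 0.19 without cKO replicate 2). Of 29 such genes in the tables, 7 had no count in the 5 deeper libraries. The glutamylase Ttll4 had 60, 92 and 128 counts in control pools and 1, 0 and 0 in cKO pools, and Ttll5, another glutamylase, had 164, 275 and 411 against 0, 0 and 61. The groups did not overlap for either gene, and neither passed (adjusted p = 1 for each, edgeR). Of all genes tested, 11.1% were lower without overlap. Atat1, the acetylase of alpha tubulin in the microtubule lumen, had 952, 1044 and 415 counts against 2426, 1 and 2187. It is named here after its values were seen. In CPM this was 69.7, 81.8 and 30.6 against 174, 1.76 and 186. Without cKO replicate 2 it was higher without overlap, as were 13.0% of all genes tested.

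Microtubule-associated proteins and stathmins had 0 of 15 genes past the test (median 0.07, and 0.57 without cKO replicate 2). Dcx, which encodes the neuronal microtubule-binding protein doublecortin, had 2698, 1882 and 548 counts in control pools and 9539, 5 and 7310 in cKO pools. Its log2 fold change was 1.75 (SE 1.20), or 2.33 without cKO replicate 2, where the groups did not overlap. In that comparison 13.0% of all genes tested were higher without overlap. Dcx is also among the neuron markers. Tppp3, a tubulin polymerization-promoting protein, had 1405, 1544 and 500 counts against 524, 690 and 505. In CPM this was 103, 121 and 36.9 against 37.7, 1214 and 42.9. Its log2 fold change of 2.21 became -1.12 without cKO replicate 2. Severing and catastrophe factors had 0 of 9 past the test (median -0.67, and -0.09 without cKO replicate 2). Mcrs1 had 667, 196 and 548 counts in control pools and 64, 1 and 236 in cKO pools (log2 fold change -1.96, SE 1.81). Kif2c had 0, 166 and 556 counts against 147, 0 and 2 (log2 fold change -2.18, SE 2.13). The CPM ranges of the groups overlapped for both genes. Over all 17 lists other than the members, 0 of 149 genes tested passed, and 8 had an unadjusted p under 0.05, as did 363 of all 12833 genes tested, or 2.83% (edgeR). Without cKO replicate 2, 0 of 161 passed and 17 had an unadjusted p under 0.05, as did 887 of all 14562 genes tested, or 6.09%.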

How the data were processed

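Read counts per gene were measured in 6 libraries, 3 cKO and 3 control. The authors deposited raw counts made with featureCounts 2.0.0 on exons of the Ensembl release 104 annotation of GRCm39, per the file headers. The command names no strand and no multi-mapping option, so counting was unstranded and antisense reads cannot be told apart. Libraries were made with the QuantSeq 3′ FWD kit, per the labels' protocols. STAR, FastQC and DESeq2 are named with no role, per the submitters' processing notes, with no version.

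Symbols were matched by identifier for 52083 of 55416 genes. CPM used the total of all counts. Genes kept by filterByExpr were scaled by TMM and tested with glmQLFit (robust) and glmQLFTest in edgeR 4.0.16 (R 4.3.3), two-sided, 3 against 3, with no covariate. Standard errors were the fold change divided by the square root of F. The test was also run on simulated counts. With the spread estimated from all 6 libraries it missed nearly all of the large changes planted, also when cKO replicate 2 was left out. That same spread was used in the run of 5 libraries, so the spread of those 5 alone was not tried. Windows and coding sequences came from GENCODE M21 transcripts by identifier, with no coordinates of that build used. Intervals were exact at 95%, and limits for 0 counts used 3 counts. No library pair agreed within sampling noise (chi-square per degree of freedom 140 to 333).

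The members and gene lists were chosen with earlier results of these data known. Named were all 10 members, other tubulins with at least 20 counts in a library, Ift88 and the 2 genes of each list with the smallest p; marker lists are given as sums. Same-numbered samples were not paired by any label. Alternatives were other scalings, DESeq2 1.42.0, other filters, a replicate block and leaving out each library, and, after the data were seen, adding processed pseudogenes. Sequence of Tubb6 and the ends of the alpha coding sequences are not reported here.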

Additional observations from a re-analysis of the deposited data

How the results depend on the processing

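No alternative called any of the 10 members. The number of all genes called was 2 in the comparison as reported, 16 with RLE scaling, 0 with upper-quartile scaling (1152 genes at an unadjusted p under 0.05 by edgeR), 135 with DESeq2, 23 without a filter and 3 with at least 5 CPM in 3 samples. It ran from 1 to 7 when each library was left out, with 7 without cKO replicate 1 and 4 without cKO replicate 3. With the replicate number as a block it was 1, and no member was called. The block was not taken as pairing, since same-numbered samples deviated together with correlations of 0.0791, 0.0511 and 0.0112, although 5 of 6 libraries correlated best with their own number. The log2 ratio of the summed level ran from -0.25 without control replicate 3 to 0.35 without cKO replicate 2, was 0.00426 without mitochondrial and ribosomal protein genes and -0.0126 on TMM-scaled sizes, and -0.10 with processed pseudogenes. The number of members whose shares did not overlap was 1 as reported and ran from 1 to 4 when each library was left out: 4 without control replicate 3, where 19.6% of all genes tested did not overlap, and 2 (Tuba1b and Tuba1c) without control replicate 1, where 22.2% were lower without overlap. Of 120 member values under alternatives, 17 changed sign and 0 passed the threshold.

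Fold changes of members when each library was left out ran from -0.98 to 0.0531 in Tuba1a, -0.58 to 0.41 in Tubb2a, -0.64 to 0.35 in Tubb2b, -0.31 to 0.36 in Tubb3, -0.87 to 0.13 in Tubb4a, -0.11 to 0.48 in Tubb5 and -0.24 to 0.42 in Tubb6 (log2). Upper-quartile scaling gave 3.36 in Tubb3, 4.88 in Tubb4b, 2.88 in Tubb5 and 2.44 in Tubb6. RLE scaling gave 0.68, 1.58, 0.59 and 0.39 in these genes, and DESeq2 0.60, 1.45, 0.54 and 0.35. Tubb2b changed sign with upper-quartile scaling (0.0352) and Tubb6 with the replicate block (-0.11). Among other genes, Tuba4a changed sign with RLE (0.37), upper-quartile scaling (3.49) and DESeq2 (0.25), Tuba8 with upper-quartile scaling (0.59), Tubg1 with upper-quartile scaling (0.26) and DESeq2 (0.0014), and Ift88 with the replicate block (-3.71). Left-out libraries turned Ift88 (-6.78 to 0.65), Tuba8 (-0.85 to 0.26), Tubg1 (-0.85 to 0.46), Tube1 (-1.41 to 0.0861), Mzt2 (-0.12 to 1.35) and Tppp3 (-1.12 to 2.70). Apart from the smaller number of samples, the cause of these changes was not tested. In cKO replicate 2 a count of 0 allowed up to 5.28 CPM, against at most 0.255 CPM elsewhere.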

Other observations

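Alpha and beta tubulin genes outside the 10 members reached the levels of the lower members. In all 3 control pools Tuba4a exceeded Tuba1a. Tuba4a, an alpha isotype found in many adult tissues, had 5997, 10049 and 3300 counts in control pools and 3335, 264 and 4069 in cKO pools. In CPM this was 439, 788 and 243 against 240, 464 and 346. Stk16 on the other strand covers 100% of the closing 500 exon bases of Tuba4a. Counting was unstranded, and how far this overlap altered the counts of Tuba4a was not tested. Tubb1, the beta isotype of platelets and their precursors, had 2981, 2820 and 908 counts against 2628, 250 and 3203. In CPM this was 218, 221 and 66.9 against 189, 440 and 272. Tuba8 had 1034, 1694 and 874 counts against 1697, 5 and 1112. Tuba3b had 543, 1048 and 413 counts against 506, 0 and 514, and Tuba3a, a testis-enriched isotype, had 569, 527 and 282 against 29, 0 and 426. None of the 5 tested genes of this group passed (edgeR, with 0 at an unadjusted p under 0.05).

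Gamma tubulin, which nucleates microtubules at centrosomes and basal bodies, was measured through 2 genes. Tubg1 had 979, 1482 and 1556 counts in control pools and 2236, 1 and 1313 in cKO pools. Tubg2 had 1309, 1116 and 1112 counts against 756, 0 and 1077. The delta and epsilon tubulins belong to centrioles and basal bodies. Tube1 had 450, 87 and 110 counts against 142, 1 and 132, and Tubd1 had 159, 0 and 53 counts against 0 in each cKO library. Mzt2, a small subunit of the gamma-tubulin ring, was the one gene of 12 in this group with 20 counts or more in cKO replicate 2 (529). It had 157, 245 and 210 CPM in control pools and 174, 930.5 and 197 CPM in cKO pools. None of 10 tested genes of the group passed (edgeR), with a median log2 fold change of -0.24, or -0.01 without cKO replicate 2.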
